A study of Mus musculus with 8 samples.

Results

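The genes described here are 10 liver genes of the urea cycle and of nitrogen handling: Nags, Cps1, Otc, Ass1, Asl, Arg1, Oat, Glul, Gls2 and Tat. They were taken by name, as all probes on the array that carried one of these symbols, with earlier results of these data known. The 10 genes had 16 probes, out of 41174 probes for 27599 gene names on the array. All 16 were kept by the filter on dim probes, which kept 33335 probes for 22226 genes in all. Each of the 16 was well above background in both channels on all 8 arrays, and 0 were saturated.

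The urea cycle turns ammonia into urea, which the kidney excretes. In mitochondria, Cps1 joins ammonia and bicarbonate into carbamoyl phosphate, with N-acetylglutamate from Nags as its essential activator, and Otc passes that group to ornithine to give citrulline. In the cytosol, Ass1 and Asl build arginine through argininosuccinate, and Arg1 splits arginine into urea and ornithine. Hepatocytes around the portal vein carry most of the cycle and the liver-type glutaminase Gls2, which frees ammonia from glutamine. Hepatocytes around the central vein carry Glul, the glutamine synthetase that takes up leftover ammonia, and most of Oat, which converts ornithine to glutamate semialdehyde. Tat, tyrosine aminotransferase, starts tyrosine breakdown and is a classical target of glucocorticoids and glucagon.

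The livers came from 8-week-old mice of the ICR scid strain, which lacks mature B and T lymphocytes, and their RNA was compared on 2-colour Agilent arrays. Each array held 2 RNA pools, and each comparison had 2 arrays, with other pools and the dyes reversed. The pools came from untreated males (5 mice each) against untreated females (5 each), and from mice given Adeno-Cux2, an adenovirus carrying the homeobox factor Cux2, against mice given the control virus Adeno-CMV. Males were taken at day 3 (pools of 5 and 6 Adeno-Cux2 mice, against 5 and 6 Adeno-CMV mice) or at day 5 (6 and 6 against 6 and 7). Females were taken at day 5 (4 and 4 against 4 and 3). Every virus comparison therefore had infected mice on both sides. In whole liver, fewer cells of a type and less RNA per cell cannot be told apart. The 2 arrays of a comparison measure the spread between pools and not between mice.

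Promoter windows for 6 of the 10 genes were in the RefSeq table on GRCm38.p6. The 250 bases before the annotated start are shown for Otc, the gene with the largest fall of the 10, for Oat, the gene with the largest rise, and for Glul, which with Oat differed between untreated males and females. Capitals mark CCAAT on either strand.
Otc promoter, chrX:10252055-10252304, + strand: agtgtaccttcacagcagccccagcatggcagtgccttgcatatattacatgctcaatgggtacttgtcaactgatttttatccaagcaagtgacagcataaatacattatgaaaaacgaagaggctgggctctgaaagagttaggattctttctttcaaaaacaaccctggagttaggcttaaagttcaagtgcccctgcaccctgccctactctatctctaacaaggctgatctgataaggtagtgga
Oat promoter, chr7:132576399-132576648, - strand: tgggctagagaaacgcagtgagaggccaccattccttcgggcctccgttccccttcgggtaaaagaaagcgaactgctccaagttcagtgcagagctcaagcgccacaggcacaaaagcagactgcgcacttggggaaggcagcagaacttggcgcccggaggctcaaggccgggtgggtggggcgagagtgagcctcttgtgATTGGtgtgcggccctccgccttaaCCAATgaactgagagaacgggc
Glul promoter, chr1:153899679-153899928, + strand: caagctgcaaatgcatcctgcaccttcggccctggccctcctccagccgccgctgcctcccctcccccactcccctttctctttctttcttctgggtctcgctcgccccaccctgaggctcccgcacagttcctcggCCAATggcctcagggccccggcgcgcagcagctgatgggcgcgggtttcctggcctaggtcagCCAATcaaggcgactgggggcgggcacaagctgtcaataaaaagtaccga
The letters of 5 short motifs were searched on both strands of the windows, and matches of different motifs may overlap. ATCGAT, a sequence bound by Cut-family homeodomains, was in 0 of the 6 windows and in 0.728% of all 32851. ATTGAT, a Onecut sequence, was in 0 of 6 and in 6.72% of all. TTGCNNAA, a C/EBP sequence, was in 0 of 6 and in 9.56%, and CAAAGTCCA, an HNF4 sequence, in 0 of 6 and in 0.384%. CCAAT had 2 matches in the Oat window, 2 in Glul and 3 in Tat, and 33.8% of all windows held it. No match means only that these letters were not in these windows.

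Several facts of the arrays touch the values below. Between 74.8% and 80.4% of the spots of an array were well above background in 1 channel or both. Xist, the female RNA of X inactivation, went against a label on the second male day 3 array: its log2 level was 5.87 in the Adeno-Cux2 pool, not well above background, and 9.16 in the Adeno-CMV pool, although both are labelled male. The male-specific Ddx3y was high in both pools of that array (13.35 and 13.14), so results for the library labelled male Adeno-CMV there are also given without it. Exocrine pancreas markers had a median log2 ratio of 3.36 on the second untreated array, 4.29 on the first female day 5 array and 2.93 on the second male day 3 array, against −0.71 to 0.07 on the other arrays. Skeletal muscle markers had a median of −1.48 and −2.77 on the 2 female day 5 arrays, 0.40 and 1.47 on the male day 5 arrays, and −0.37 to 0.37 on the others. The probe for Cux2 had log2 ratios of 0.49 ± 0.09 in males at day 3, 0.60 ± 0.09 in males at day 5 and −0.61 ± 0.09 in females at day 5. Whether it lies in the part of Cux2 that the virus carries is not given in the sources used here. Defining hepatocyte markers were present: 8 of 10 such genes were measured.

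Values below are log2 ratios of the first pool named over the second, and the error after ± is the standard error (SE) of 1 model over all 8 arrays, n = 2 arrays per comparison. Calls rest on each gene's brightest probe, with p adjusted over all kept probes and a threshold of 0.05. Of the 10 genes, 2 were called in untreated males against females, both lower in males, where 10.9% of all genes were called (4.83% higher and 6.04% lower). At day 3 in males, 8 were called and all were lower with Adeno-Cux2, where 44.2% of all genes were called (23.9% higher and 20.3% lower). That number was 6 without the first male day 3 array and 7 without the second, which had Xist in its control pool. Day 5 males had 2 higher and 1 lower, where 18.6% of all genes were called (13.8% higher and 4.82% lower). Day 5 females had 2 higher and 3 lower, where 19.0% of all genes were called (12.7% higher and 6.25% lower). The median log2 ratio of the 10 genes was −0.40 for untreated livers, −0.67 for day 3 males, 0.06 for day 5 males and 0.04 for day 5 females, while that of all genes lay between −0.01 and 0.01.

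**Figure D1:**
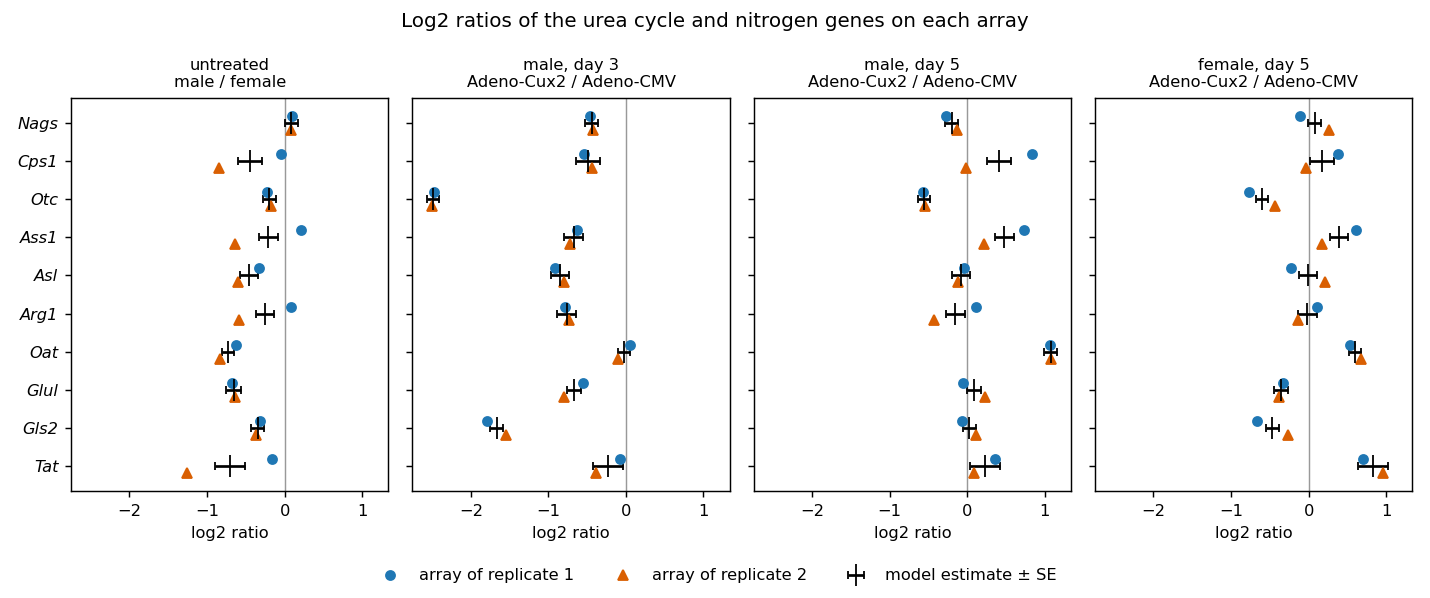
Log2 ratio of each of the 10 genes (rows) in the 4 comparisons (panels), with the array of replicate 1 as circles, that of replicate 2 as triangles and the model estimate ± SE as black bars. The male day 3 panel holds the lowest values, −2.49 for Otc and −1.67 for Gls2, and Oat stands at 1.07 in males at day 5.

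Both genes at the mitochondrial entry fell in males at day 3 and were not called at day 5 or in untreated mice. Nags, which makes the activator of Cps1, had log2 ratios of −0.46 and −0.43 on the 2 male day 3 arrays, and it fell by 0.44 ± 0.08 on the log2 scale (1.36-fold lower, adjusted p = 0.00481). Its dimmer probe also fell, by 0.46 ± 0.08. At day 5 Nags had −0.27 and −0.13 in males and −0.11 and 0.27 in females. The untreated arrays gave 0.09 and 0.08, and none of these passed the test. The male day 3 call was lost without the second array (adjusted p = 0.0994).

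Cps1, among the brightest probes of the set (chr1:67164100-67164159 on mm8), had log2 ratios of −0.54 and −0.44 in males at day 3, and fell by 0.49 ± 0.16 (1.40-fold lower, adjusted p = 0.0428). That call was lost in 9 of 20 other settings. The estimate was −0.09 without the first array of that comparison, with the call lost, and −0.88 without the second. With 1 array left, its ratio is corrected by the model's term for dye, which then comes from the other comparisons. The 2 arrays themselves differed by less (−0.54 and −0.44). The day 5 arrays gave 0.84 and −0.02 in males and 0.38 and −0.03 in females, and the untreated arrays −0.04 and −0.85. In these 3 comparisons replicate 1 was higher than replicate 2 by more than the size of the estimate, and none was called.

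The same gap ran through Ass1, Arg1 and the hepatocyte markers. Ass1 was higher on replicate 1 than on replicate 2 by 0.85 in untreated mice, and Arg1 by 0.67. The median of the 8 hepatocyte markers was 0.39 and −0.66 on the 2 untreated arrays, 0.06 and −0.49 for day 3 males, 0.66 and 0.00 for day 5 males, and 0.56 and 0.12 for day 5 females. The part of dye, pool and hepatocyte RNA in this gap was not tested.

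Otc, the enzyme that makes citrulline, had the largest change of the 10 genes in any comparison. On the male day 3 arrays its log2 level was 13.78 and 13.67 in the Adeno-Cux2 pools, against 16.26 and 16.17 in the Adeno-CMV pools. The pools of the 2 groups did not overlap. With 2 pools a side such a gap is a weak mark, here and below, and its share over all genes is not given. Otc fell by 2.49 ± 0.08 (5.61-fold lower, adjusted p = 1.05e-05), and only 58 of 22226 genes had a lower estimate there. The brightest probe (chrX:9477100-9477159 on mm8) was joined by a probe that spans chrX:9433676-9457323, with −1.93 ± 0.08, and by a dimmer one at chrX:9473077-9473136, with −1.82 ± 0.11. All 3 probes passed the test. Without the first or the second array the estimate was −2.57 or −2.41.

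At day 5 Otc was lower by less. In males its level was 15.83 and 15.85 in the Adeno-Cux2 pools, against 16.41 and 16.39 in the Adeno-CMV pools, a fall by 0.56 ± 0.08 (1.47-fold lower, adjusted p = 0.00387). In females it was 15.20 and 15.52 in the Adeno-Cux2 pools, against 15.97 and 15.95 in the Adeno-CMV pools, a fall by 0.60 ± 0.08 (1.51-fold lower, adjusted p = 0.00352). Without the first female array, which carried the pancreas markers, the female estimate was −0.44 (adjusted p = 0.0737), and without either male array the male estimate was −0.61 or −0.51, with the call lost. The middle probe by brightness had −0.43 ± 0.08 in males (adjusted p = 0.0148) and −0.44 ± 0.08 in females (adjusted p = 0.0136), both called. The dimmest probe had −0.28 ± 0.11 in males and −0.19 ± 0.11 in females, and neither passed the test. In untreated mice the 3 probes disagreed in sign, from −0.20 ± 0.08 for the brightest to 0.36 ± 0.11 for the dimmest, and none passed.

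The cytosolic enzymes fell together in males at day 3. Asl (argininosuccinate lyase) had −0.91 and −0.79 there and fell by 0.85 ± 0.12 (1.80-fold lower, adjusted p = 0.00116). Arg1 (arginase of the liver) had −0.79 and −0.74 and fell by 0.76 ± 0.12 (1.70-fold lower, adjusted p = 0.00233). Ass1 (argininosuccinate synthetase) had −0.63 and −0.72 and fell by 0.68 ± 0.12 (1.60-fold lower, adjusted p = 0.00377), with its second probe at −0.70 ± 0.14. These 3 genes therefore had lower values on both male day 3 arrays, by similar amounts. Without the second array, the one with Xist in the control pool, the estimates were −0.93 for Ass1, −0.89 for Asl and −1.03 for Arg1. The array left read −0.63, −0.91 and −0.79 for them. With 1 array left, its ratio is corrected by the model's term for dye, which then comes from the other comparisons. These estimates therefore do not show that the second array hid larger falls. Without the first, Ass1 was at −0.42, with the call lost, Asl at −0.81 and Arg1 at −0.50.

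At day 5 these enzymes showed no fall that passed the test. Ass1 was higher in males, with 0.73 and 0.22 on the 2 arrays and an estimate of 0.48 ± 0.12 (1.39-fold higher, adjusted p = 0.0362), a call kept in 11 of 20 other settings. Its second probe gave 0.56 ± 0.14 (adjusted p = 0.0318). In females Ass1 had 0.61 and 0.17, an estimate of 0.39 ± 0.12 that missed the threshold (adjusted p = 0.069). Asl had −0.04 and −0.11 in males and −0.22 and 0.21 in females. Arg1 had 0.12 and −0.43 in males and 0.11 and −0.14 in females, so that the 2 arrays lay on both sides of 0 in either sex. In untreated mice Asl was at −0.46 ± 0.12 (adjusted p = 0.0525), Arg1 at −0.25 ± 0.12 and Ass1 at −0.21 ± 0.12, none of them called.

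**Figure D2:**
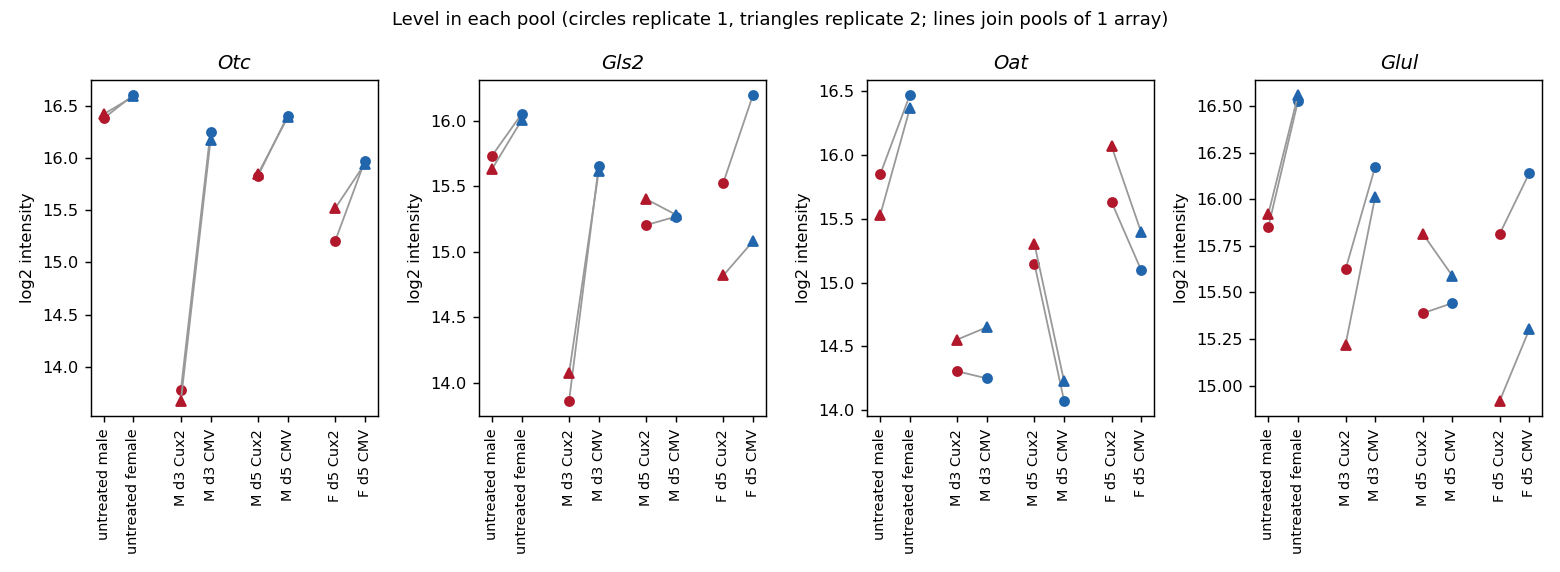
Log2 intensity of Otc, Gls2, Oat and Glul in each pool, with untreated male or Adeno-Cux2 pools in red on the left of each pair and untreated female or Adeno-CMV pools in blue on the right (M male, F female, d day). Otc and Gls2 drop in the male day 3 Adeno-Cux2 pools, to 13.78 and 13.67 and to 13.86 and 14.07, and Oat is higher in both day 5 Adeno-Cux2 pairs.

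Oat, which drains ornithine away from the cycle, rose at day 5 in both sexes, where Otc fell. Its level in day 5 males (chr7:132396386-132396445 on mm8) was 15.15 and 15.30 in the Adeno-Cux2 pools, against 14.08 and 14.23 in the Adeno-CMV pools. The groups did not overlap, again with only 2 pools a side. Oat rose by 1.07 ± 0.08 (2.11-fold higher, adjusted p = 0.00022). In females at day 5 the levels were 15.63 and 16.07 in the Adeno-Cux2 pools, against 15.10 and 15.39 in the Adeno-CMV pools, a rise by 0.60 ± 0.08 (1.52-fold higher, adjusted p = 0.00325). The female call was lost without the second female array (0.47, adjusted p = 0.0573). The day 3 arrays gave 0.06 and −0.10, and no change was called.

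Untreated males had less Oat than untreated females. The levels were 15.85 and 15.53 in male pools, against 16.47 and 16.36 in female pools, and the estimate was −0.73 ± 0.08 (1.66-fold lower, adjusted p = 0.00267). Among all pools, the lowest Oat levels were those of the male Adeno-CMV pools at day 5 (14.08 and 14.23), followed by the male day 3 pools of both viruses (14.25 to 14.65), whose ranges overlapped. The highest were those of untreated females. Pools of different arrays lie on different slides or arrays, so this order is a description with no test.

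The 2 glutamine enzymes fell together in males at day 3. Gls2, which releases ammonia from glutamine next to the urea cycle, had levels of 13.86 and 14.07 in the Adeno-Cux2 pools, against 15.66 and 15.62 in the Adeno-CMV pools. It fell by 1.67 ± 0.09 (3.18-fold lower, adjusted p = 2.76e-05), and 232 of 22226 genes had a lower estimate. Glul, which makes glutamine, had 15.62 and 15.22 in the Adeno-Cux2 pools, against 16.17 and 16.01 in the Adeno-CMV pools, a fall by 0.67 ± 0.09 (1.59-fold lower, adjusted p = 0.00128). Neither gene's pools overlapped between the viruses, a weak mark with 2 pools a side. Both calls held without either male day 3 array.

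In females at day 5 both glutamine genes were lower by less. Gls2 had log2 ratios of −0.67 and −0.26 and fell by 0.47 ± 0.09 (1.38-fold lower, adjusted p = 0.0124), a call lost without the first female array (−0.32, adjusted p = 0.228). Glul had −0.33 and −0.38 and fell by 0.35 ± 0.09 (1.28-fold lower, adjusted p = 0.0426), a call lost in 8 of 20 other settings. Its middle probe by brightness had −0.13 ± 0.10 and was not called (adjusted p = 0.436). Its dimmest had −0.30 ± 0.07 (adjusted p = 0.0302). The first female array carried the pancreas markers and both had low muscle markers, and the part of these tissues in the female ratios was not tested. Day 5 males had −0.06 and 0.12 for Gls2 and −0.05 and 0.23 for Glul, with no call.

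Glul was also lower in untreated males, with levels of 15.85 and 15.92 in male pools, against 16.53 and 16.56 in female pools. The estimate was −0.66 ± 0.09 (1.58-fold lower, adjusted p = 0.00789). That call was lost in 3 of 20 other settings, among them without the first untreated array (−0.63, adjusted p = 0.124). The 3 Glul probes did not give 1 size: the middle probe had −0.40 ± 0.10 (adjusted p = 0.0503), and the dimmest, with a mean log2 intensity of only 6.57, had 0.01 ± 0.07. At day 3 in males the 3 probes gave −0.67, −0.33 and −0.24, all called. Gls2 had −0.32 and −0.37 in untreated mice and just missed the threshold (adjusted p = 0.0532).

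Tat was called in females at day 5 alone. Its log2 ratios there were 0.70 and 0.96, and it rose by 0.83 ± 0.19 (1.78-fold higher, adjusted p = 0.0274), a call lost without the second female array (0.42, adjusted p = 0.356). In males it had 0.36 and 0.09 at day 5 and −0.08 and −0.39 at day 3. The untreated arrays gave −0.16 and −1.26, with an estimate of −0.71 ± 0.19 (adjusted p = 0.0665). The larger fall was on the array with the pancreas markers and the lower hepatocyte markers, whose part in it was not tested. Tat had the largest SE of the 10 genes.

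Next, the male response was compared between days, as the day 5 log2 ratio minus the day 3 log2 ratio in the same model. All 10 differences were above 0, where 11843 of all 22226 genes were. Of the 10, 7 were called, where 13.0% of all genes were called. All 7 were called as higher, where 1811 of the 22226 genes were. The difference was 1.93 ± 0.11 for Otc (95% interval 1.66 to 2.20, adjusted p = 0.00107) and 1.70 ± 0.12 for Gls2 (1.40 to 1.99, adjusted p = 0.0018). Ass1 differed by 1.15 ± 0.17 (adjusted p = 0.00905), Oat by 1.09 ± 0.11 (adjusted p = 0.00378) and Cps1 by 0.90 ± 0.22 (adjusted p = 0.0459). Asl differed by 0.77 ± 0.16 and Glul by 0.76 ± 0.13. The Cps1 call was lost in 10 of 18 other settings (0.50 to 1.29) and the Asl call in 7 (0.64 to 0.86), those of Glul, Ass1 and Oat in 4, 3 and 2, and those of Otc and Gls2 in 0. For Oat it was a rise at day 5 with no called change at day 3, for Otc a smaller fall at day 5, for Ass1 a fall at day 3 and a rise at day 5, and for Cps1, Asl, Glul and Gls2 a fall at day 3 with no called change at day 5. Arg1 (0.61), Tat (0.46) and Nags (0.24) did not pass. The days lay on different slides, so the day and the slide cannot be told apart. Leaving out 1 of the male day 3 arrays left 5 genes called, and leaving out 1 of the male day 5 arrays left 2.

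**Figure D3:**
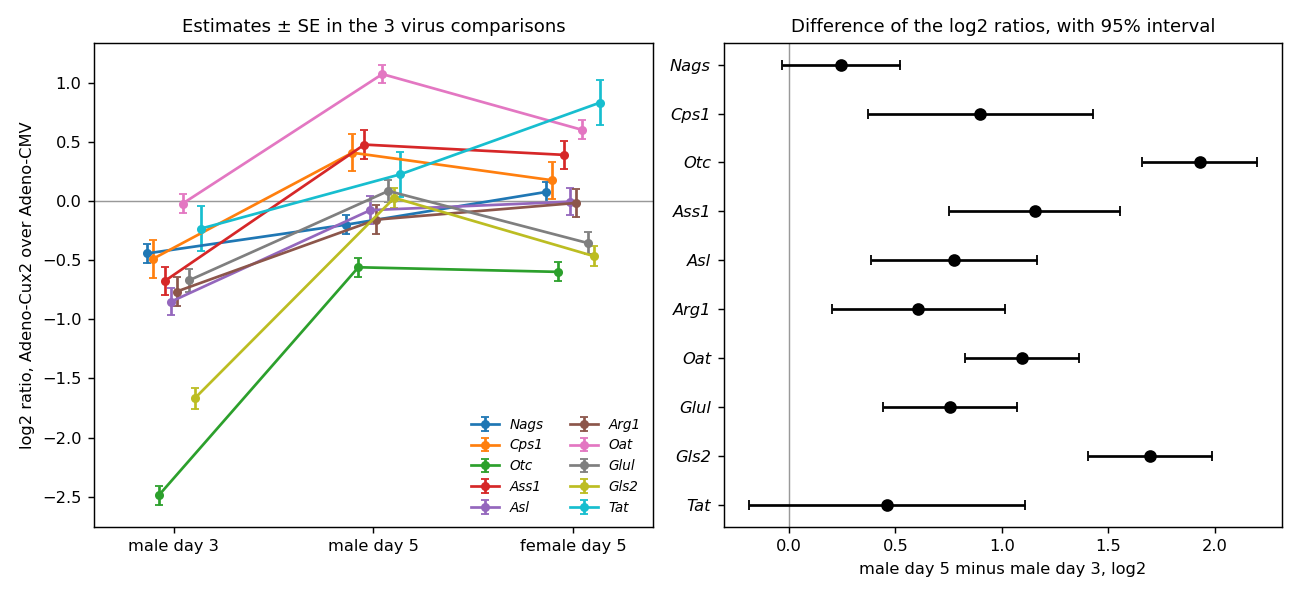
Left, log2 ratio of Adeno-Cux2 over Adeno-CMV with its SE for the 10 genes in the 3 virus comparisons, joined by lines. Right, male day 5 minus male day 3 with the 95% interval, where all 10 points lie above 0 and Otc is highest at 1.93. Of all 22226 genes, 11843 were above 0.

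The female response at day 5 was set against the male response at day 5 in the same way. By limma 0 of the 10 genes were called, where 0.225% of all genes were. The 95% intervals below are not adjusted for the number of genes tested. Oat was at 0.60 in females against 1.07 in males, a difference of −0.47 with a 95% interval of −0.74 to −0.20 (adjusted p = 0.184). Gls2 differed by −0.49 (−0.78 to −0.20, adjusted p = 0.205) and Glul by −0.44 (−0.75 to −0.13, adjusted p = 0.292). For Otc the difference was −0.04, with an interval of −0.31 to 0.23, so that a sex difference above about that size was outside the interval. The sexes also lay on different slides.

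The other genes of nitrogen handling were taken from a list of 30 carriers, transaminases and partner enzymes. Day 3 males had 7 that rose, near the share of all genes that rose (23.9%), and 15 that fell (median −0.25). Day 5 males had 7 that rose and 3 that fell, and day 5 females 6 and 3. In untreated mice 1 was higher and 6 were lower in males. For this list and those below, the shares of all genes were 23.9% higher and 20.3% lower in day 3 males. They were 13.8% and 4.82% in day 5 males, 12.7% and 6.25% in day 5 females, and 4.83% and 6.04% in untreated livers. At day 3 the falls included Slc1a2, a glutamate transporter of pericentral hepatocytes (−2.16 ± 0.13), Car5a, the mitochondrial carbonic anhydrase that supplies Cps1 with bicarbonate (−1.69 ± 0.09), and the glutamine and neutral amino acid transporters Slc38a4 (−1.45 ± 0.15) and Slc38a3 (−1.42 ± 0.13). Car5a was also lower at day 5, by 0.46 ± 0.09 in males and by 0.55 ± 0.09 in females. Slc25a15, the ornithine carrier of mitochondria, rose by 0.63 ± 0.07 in females at day 5 (1.55-fold higher) and was lower in untreated males than in females, at −0.54 ± 0.07.

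The genes of this list that rose were led by Asns in all 3 virus comparisons. Asns, which makes asparagine with nitrogen from glutamine, rose by 3.49 ± 0.18 in males at day 3 (3.26 and 3.72 on the arrays, 11.2-fold higher), by 2.02 ± 0.18 in males at day 5 (2.03 and 2.01) and by 1.99 ± 0.18 in females at day 5 (2.34 and 1.63). Odc1, which makes polyamines from ornithine, rose by 1.02 ± 0.10 at day 3. Gatm, which uses arginine for creatine synthesis, rose by 0.73 ± 0.10 in males and by 0.62 ± 0.10 in females at day 5. In untreated mice the list held Got1, the cytosolic aspartate transaminase, at −1.18 ± 0.11 (2.27-fold lower in males).

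The arginase genes differed in direction. Mitochondrial arginase Arg2, found mainly outside hepatocytes, rose by 2.39 ± 0.08 in males at day 3 (2.53 and 2.25), where Arg1 fell by 0.76 ± 0.12. Arg2 also rose by 1.67 ± 0.08 in males and by 1.06 ± 0.08 in females at day 5. Levels of different probes cannot be set against each other, so which form was more abundant is not given.

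Markers of macrophages and neutrophils were counted beside these rises. The macrophage list joins genes that rose and genes that fell at day 3, so its count cannot be set against the size of the Arg2 rise. Of 24 macrophage markers, 12 rose and 6 fell in males at day 3 (median 0.34 and 0.38 on the 2 arrays), 22 rose in males at day 5 (1.34 and 1.26) and 17 in females at day 5 (0.83 and 0.72). At day 3 Gpnmb, a gene of activated macrophages, was at 3.17 ± 0.07, and the Kupffer cell lectin Clec4f at −2.23 ± 0.13. Of 13 neutrophil markers 11 rose in each virus comparison. In untreated mice 6 macrophage markers were lower in males and 0 higher. Their part in the rises of Arg2 and Oat was not tested.

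Enzymes that break down amino acids, and so deliver nitrogen to the cycle, fell broadly at day 3. Of 38 measured on the list, 2 rose and 33 fell in males at day 3 (median −0.95), 1 rose and 3 fell in males at day 5 (median −0.05), and 1 rose and 9 fell in females at day 5 (median −0.11). Those that fell most at day 3 were Mat1a, the liver methionine adenosyltransferase (−2.27 ± 0.24), Aadat of lysine and kynurenine breakdown (−2.11 ± 0.06), proline dehydrogenase Prodh (−2.10 ± 0.11) and Hpd, the enzyme after Tat in tyrosine breakdown (−1.90 ± 0.20). Acmsd of tryptophan breakdown rose instead, by 1.64 ± 0.11 at day 3, by 0.98 ± 0.11 in males at day 5 and by 1.44 ± 0.11 in females at day 5. In untreated mice 1 of the 38 was higher in males, Aadat (0.95 ± 0.06), and 4 were lower.

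**Figure D4:**
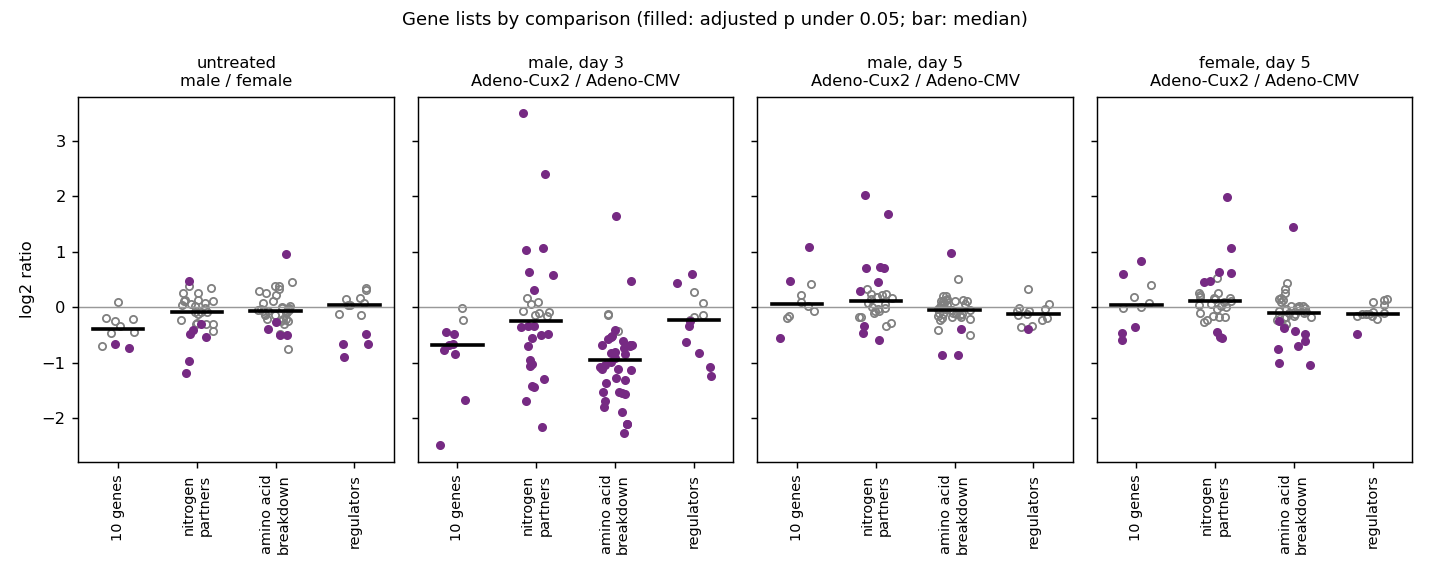
Log2 ratio of every measured gene in the 10 genes described here and in 3 lists, by comparison, with called genes filled and the median as a bar. For day 3 males the amino acid breakdown list has a median of −0.95, and 33 of its 38 genes fell.

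Among 13 regulators of these pathways, 2 rose and 6 fell in males at day 3, 1 fell in each day 5 comparison, and 4 were lower in untreated males. At day 3 the factor Cebpa, which mouse liver needs for full expression of urea cycle genes, fell by 1.24 ± 0.15 (2.36-fold lower). Klf15, a factor for amino acid breakdown, fell by 1.08 ± 0.08 at day 3 and by 0.40 ± 0.08 in males at day 5. The glucagon receptor gene Gcgr fell by 0.82 ± 0.08 at day 3. In untreated males Ppargc1a, a fasting coactivator, was lower by an estimate of −0.90 ± 0.13, and Klf15 by −0.66 ± 0.08.

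Targets of glucagon and glucocorticoids other than Tat did not move one way. Of 11 measured, 5 rose and 4 fell in males at day 3, 3 rose and 3 fell in males at day 5, and 1 rose and 1 fell in females at day 5. Pdk4, a kinase that spares glucose, rose by 3.41 ± 0.20 at day 3 (10.6-fold higher), while the glucose-6-phosphatase gene G6pc fell by 2.64 ± 0.15. In untreated mice 8 of the 11 were lower in males and 0 higher, among them Igfbp1 (−2.78 ± 0.43) and Fkbp5 (−1.26 ± 0.10).

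Markers of liver zones were counted because Glul and Oat are pericentral and the cycle is periportal. Of 18 other pericentral markers, 4 rose and 9 fell in males at day 3, 8 rose and 1 fell in males at day 5, 6 rose and 2 fell in females at day 5, and 1 was higher and 6 were lower in untreated males. Of 15 periportal markers, 2 rose and 9 fell in males at day 3, 3 rose and 3 fell in males at day 5, 2 rose and 2 fell in females at day 5, and 1 was higher and 3 were lower in untreated males. At day 3 both zones thus had more genes that fell than rose, with Cyp2e1 (pericentral) at −2.49 ± 0.08 and Cyp2f2 (periportal) at −3.37 ± 0.23. Pericentral genes that rose at day 3 included Slc13a3 (0.84 ± 0.07) and Ahr (0.81 ± 0.08), where Oat had −0.02. At day 5 in males the pericentral genes Cyp1a2 (1.34 ± 0.22) and Slc13a3 (1.18 ± 0.07) rose, as did Oat, while Rgn fell (−0.37 ± 0.08) and Glul had 0.09.

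Finally, the genes with the most similar ratios over the 8 arrays were named for each member that was called with a log2 ratio of at least 0.58 in size, by Pearson's r among 5182 other genes. The 8 values come in 4 pairs of arrays, so these correlations are a description. Otc was most like the chloride channel gene Clcn2 (r = 0.999), with Col18a1 (0.996) and Dnajc28 (0.993) after it. Clcn2 had −1.28 in males at day 3 and −0.31 and −0.30 at day 5 in males and females. Gls2 was most like Snx21 (0.990), and Asl most like Cyp7a1 (0.966), the rate-limiting enzyme of bile acid synthesis. Oat was most like Il18bp (0.999), Pilrb1 (0.996) and Csf1r (0.993), the last a receptor that marks macrophages, which had −0.24 for untreated livers, 0.41 for day 3 males, 1.41 for day 5 males and 0.85 for day 5 females. Glul was most like Rims3 (0.973), Arg1 like Igfbp3 (0.944), Ass1 like Cfi (0.936) and Tat like Fam171a1 (0.981).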

How the data were processed

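Liver RNA pools were hybridised in 8 two-colour arrays, and RNA was extracted with Trizol and amplified to aminoallyl RNA, per the labels' protocols. The deposited intensity values are median pixel signals of spot and local background in each channel, not normalized, from Agilent Feature Extraction 9.5.3.1 (untreated, male day 5) or 10.7.1.1 (female day 5, male day 3), per the file headers. The deposited log10 ratios, red over green, are background-subtracted and dye-normalized by that software, per the file headers. In the authors' deposited value table the log10 ratios are the same within 4.995e-06, with the sign turned on replicate 2. Deposited spot flags are a score of 0 or 1, per the file headers. Probe positions in the files are on mm8.

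From the intensities, background was corrected by normexp (offset 50) and ratios by loess within each array, with control and outlier spots at weight 0, in limma 3.58.1 under R 4.3.3 with data.table at 1.17.8. Of 41174 probes, 33335 were kept, each well above background in 1 channel or both on both arrays of a comparison. Names came from RefSeq tables: accessions named 24375 probes, symbols 6301 and synonyms 2422, and the file's name stayed for 8076. The brightest probe stood for a gene. One limma fit had 4 comparison coefficients and a dye term, with 3 residual degrees of freedom, 2-sided moderated tests and Benjamini-Hochberg adjustment over all kept probes. In every comparison replicate 1 had the first-named pool in red and replicate 2 in green, so the dye term is also the replicate number. Pool levels are log2 intensities after quantile scaling of the average signal over arrays. On simulated data the fit was checked with 200 changed genes per comparison.

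The genes, lists and tests were chosen with earlier results of these data known. All 16 probes of the 10 genes were tested, and values of probes other than the brightest are given for some comparisons only. From each list, up to 4 called genes with the largest rise and 4 with the largest fall were named, if all their probes had 1 sign. Lists of endothelial, stellate, natural killer and T, cholangiocyte and muscle markers were counted and are given with the closing values. The series text gives 11 untreated females, while the sample labels give 10. Alternatives were another background correction, the software's ratios, median centring, no filter or a stricter one, 1 probe per gene, an intensity trend, other dye terms, single slides, and leaving out each array.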

Additional observations from a re-analysis of the deposited data

Results flagged for a closer look

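For 7 of the 10 genes the male response differed between day 5 and day 3 by a test of the difference itself, as the day 5 log2 ratio minus the day 3 log2 ratio. By that test 13.0% of all genes were called. The difference was 0.90 for Cps1 (0.41 at day 5 and −0.49 at day 3, not called in 10 of 18 other settings), 1.93 for Otc, 1.15 for Ass1, 0.77 for Asl, 1.09 for Oat, 0.76 for Glul and 1.70 for Gls2. The days also differ in slide and in the pools of mice, which cannot be told apart from the day.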

How the results depend on the processing

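Of the 10 genes, 2, 8, 3 and 5 were called for untreated livers, day 3 males, day 5 males and day 5 females, 7 in male day 5 minus day 3 and 0 in female minus male day 5. Over 18 to 20 other settings no called value changed sign, and sign changes were among values not called on either side. Otc, Asl, Arg1, Glul and Gls2 in males at day 3 and Oat in males at day 5 were called in every setting run. With the software's log ratios the counts were 1 in untreated mice, 2 in females at day 5 and 3 for the day difference. They were 6 in untreated mice with a dye term for each slide and with its own slide alone, 0 in untreated mice and 3 in females with their own 2 arrays alone, and 3 in females with no background subtraction. Leaving out 1 array at a time, the number of the 10 genes called ran from 2 to 4 for untreated livers, 6 to 8 for day 3 males, 1 to 4 for day 5 males, 2 to 6 for day 5 females, 2 to 8 for the day difference and 0 to 0 for the sex difference. With an array of its own left out, a comparison rests on 1 array, which is assumed to vary like the others. The ratio of that array is then corrected by a dye term that comes from the other comparisons.

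The correlation of replicate deviations ran from −0.07 to 0.30 over the 6 pairs of comparisons. Because the replicate number is also the dye order, this cannot tell a pairing of samples from a dye effect. With no replicate block, which is the dye term here, the counts were 3, 7, 2 and 5 in the same order, 6 for the day difference and 0 for the sex difference.

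Over all genes, each by its brightest probe, 2416 were called for untreated livers, 9826 for day 3 males, 4137 for day 5 males, 4217 for day 5 females, 2899 for the day difference and 50 for the sex difference. In untreated mice the number was 1478 with no background subtraction, 1021 with the software's ratios, 1554 with median centring and 415 with its own 2 arrays. It was 6264 in males at day 5 with their own 2 arrays, and 2422 in females and 439 for the day difference with the software's ratios. The sex difference had 1 with no background subtraction, 12 with an offset of 10, 0 with the software's ratios, 78 with no filter and 83 with an intensity trend. Leaving out 1 array gave 532 to 3918, 5467 to 10910, 1071 to 5004, 1277 to 5185, 108 to 3876 and 0 to 81 in the order above. With median centring 68.6% of the called genes were higher in day 3 males, against 54% as reported, and 37.2% were above 0 for the day difference, against 62.5%. The counts of each setting were also made over probes, and set against the reported count in the same way. In 114 of 116 such comparisons, counting probes and counting genes gave the same answer on whether the count changed by more than 1.5-fold. This compares the ways of counting, and does not show that the counts held across settings. The other 2 were the sex difference with no filter (99 probes against 67, 78 genes against 50) and day 5 females with their own 2 arrays. The latter had 3791 probes against 5800 and 2848 genes against 4217. The causes were not tested.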

Other observations

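Marker lists of other cells and tissues not described above gave these counts. Of 12 stellate cell markers, 9 rose and 1 fell in males at day 3, 10 rose in males at day 5 and 10 in females at day 5. Of 8 cholangiocyte markers, 5, 5 and 7 rose in the same order. Of 13 natural killer and T cell markers, 9 rose and 1 fell, then 7 rose, then 4 rose. Of 10 endothelial markers, 3 rose and 2 fell, then 5 rose, then 5 rose. Their day 3 counts were near the shares of all genes (23.9% higher and 20.3% lower). Of 10 skeletal muscle markers, 8 fell in females at day 5, with medians of −1.48 and −2.77 on the 2 arrays. In males at day 5 all 10 were above 0 and 1 was called, Acta1 (1.61 ± 0.39), with medians of 0.40 and 1.47.

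The list of glucagon and glucocorticoid targets differed in size as well as in sign. Igfbp1 rose by 3.26 ± 0.43 in males at day 3 and by 2.08 ± 0.43 in males at day 5, and Sgk1 rose by 0.71 ± 0.11, by 0.74 ± 0.11 and, in females at day 5, by 0.59 ± 0.11.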
